A study of Drosophila melanogaster with 2 samples.

Results

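The genes described here encode the proteins that start and extend translation and the enzymes that load tRNAs with amino acids. They were chosen by symbol: every protein-coding gene of the Ensembl release 115 annotation (BDGP6.54) whose symbol begins with eIF or eEF and a number, or is a 3-letter amino acid code followed by RS or RS-m. This gave 83 of 13986 protein-coding genes, namely 44 initiation factors, 7 elongation factors, 17 cytosolic tRNA synthetases and 15 mitochondrial tRNA synthetases. The symbols follow the annotation, so the initiation class also holds eIF6 and eIF4EHP, whose known roles are in ribosome assembly and in repressing translation. Synthetases were classed by the ending -m alone. GlyRS, LysRS, ThrRS and HisRS, for example, have no -m gene among the 83, and the symbol does not say whether they also serve mitochondria. Synthetases whose symbols do not have this form, such as GluProRS, were left out of the 83 and are described with the other translation genes.

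The flies came from a transgenic Drosophila melanogaster line, named Mio-GFP, in which Mio (an older name of Mondo) carries GFP at its C-terminus. Chromatin from whole wandering larvae of the third instar, males and females pooled, age unknown, was precipitated with an antibody against GFP and sequenced. The single group held biological replicates 5 and 1 (n = 2), both of the same line, with no treatment named, and each was called against the same control alignment. No source used here says what drives the fusion gene or whether untagged Mondo was still present, and in whole larvae strong binding in few cells and weak binding in many cannot be told apart.

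Mondo, a bHLH-zip transcription factor, is the fly relative of vertebrate MondoA and ChREBP, and with its partner Mlx it is known for adjusting transcription to sugar supply by binding E-boxes, of which CACGTG is the classic form. Translation begins when initiation factors bring the small ribosomal subunit, the initiator tRNA and the mRNA cap together. Elongation factors then deliver charged tRNAs and move the ribosome along. Aminoacyl-tRNA synthetases charge each tRNA with its amino acid, in flies with separate genes for many of the cytosolic and mitochondrial enzymes.

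The deposited peak lists in the dm6 build were used. The optimal list, derived from both replicates and the pooled data, held 1146 peaks. The relaxed lists, which also hold background, held 28423 peaks in the pooled data, 29999 in replicate 5 and 30000 in replicate 1. A promoter was called bound when an optimal summit lay within 500 bp of a transcription start site (TSS) of the gene. Peaks are described by their deposited signal and by rank, where rank 1 is the strongest peak of a list. The scale of the signal and the read depth are unknown, so signals are not comparable between lists. With 1 group and no second condition there is no test of a difference, and the members' counts are given beside those over all protein-coding genes.

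Of the 83 genes, 11 had a bound promoter (13.3%, 95% Wilson interval 7.56 to 22.2%), against 6.17% of all protein-coding genes. They were the initiation factor genes eIF6, eIF1, eIF4EHP, eIF3h and eIF3c, the elongation factor genes eEF1gamma, eEF5 and eEF1alpha1, the cytosolic synthetase genes SerRS and AsnRS, and the mitochondrial synthetase gene ArgRS-m. By class, 5 of 44 initiation factors were bound (11.4%, interval 4.95 to 24%), 3 of 7 elongation factors (42.9%, 15.8 to 75%), 2 of 17 cytosolic synthetases (11.8%, 3.29 to 34.3%) and 1 of 15 mitochondrial synthetases (6.67%, 1.19 to 29.8%). The intervals cover counting error over genes only. The intervals of the initiation factors and of both synthetase classes contained the genome-wide share. The elongation count rests on replicate 1: among the 1146 strongest peaks of replicate 1 alone it was 3, and among those of replicate 5 alone it was 1. Elongation factor genes also had more start sites, with a mean of 2 per gene against 1.40 over all genes; 2 or more start sites were annotated for 5 of the 7 (71.4%), for 49.1% of all bound genes and for 26.5% of all genes. The part of start-site number in the count was not tested.

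Weak peaks were common at these promoters, as they were in the genome. A pooled relaxed summit was present at 47 of the 83 (56.6%, interval 45.9 to 66.8%), against 47.5% of all genes. By class these were 22 initiation factors (50%), 6 elongation factors (85.7%), 12 cytosolic synthetases (70.6%) and 7 mitochondrial synthetases (46.7%). Among genes with such a summit, 11 of 47 members reached the optimal list (23.4%, interval 13.6 to 37.2%), against 13% of all genes. No summit of any list was found at 21 members (25.3%), against 36.4% of all genes. These 21 were 13 initiation factors (29.5%), 1 elongation factor (14.3%), 1 cytosolic synthetase (5.88%) and 6 mitochondrial synthetases (40%).

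**Figure D1:**
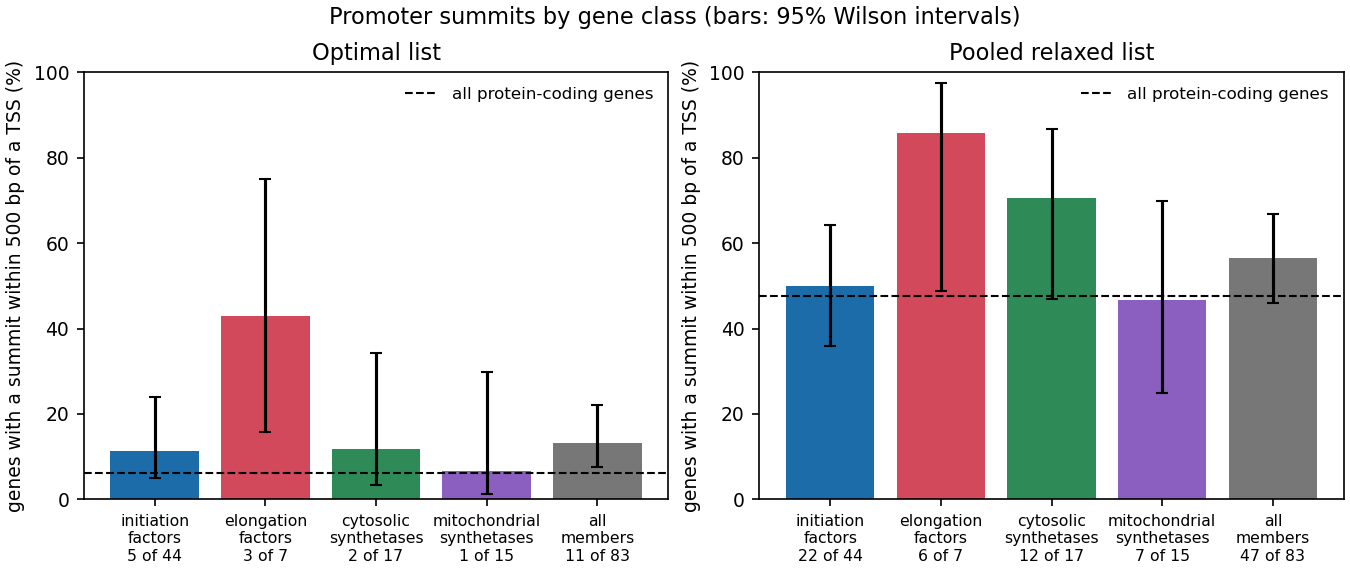
Percentage of genes with a summit within 500 bp of a TSS, by class of translation gene, in the optimal list (left) and the pooled relaxed list (right), with 95% Wilson intervals over genes as error bars and the share of all protein-coding genes as a dashed line. In the optimal list the elongation factors reach 42.9% of 7 genes and the mitochondrial synthetases 6.67% of 15.

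The bound initiation factor genes differed widely in peak strength. eIF1 encodes the small factor that keeps the scanning ribosome open until a start codon is found. Its peak (chr3L:3222922-3223097) had rank 162 and signal 182.3 in the optimal list. The matched peak had signal 98.7 and rank 196 in replicate 5, and signal 78.2 and rank 169 in replicate 1. The replicates thus placed it alike. The summit lay 330 bp upstream of eIF1, between genes, and only 51 bp upstream of RpL28, a ribosomal protein gene on the other strand, so eIF1 is the farther of the genes that share this peak. eIF4EHP encodes a cap-binding protein that competes with eIF4E and represses bound mRNAs. Its peak (chr3R:24108892-24109251) had rank 350 and signal 125.3, with its summit 112 bp upstream of the TSS and 264 bp upstream of CG18428 on the other strand. The matched peak ranked 245 in replicate 5 (signal 89.7) and 621 in replicate 1 (signal 41.9). A further optimal summit lay 312 bp upstream of eIF4EHP, at rank 622 with signal 95.9. The sequences within 50 bp of the summits at these genes, from the RefSeq Release 6 genome (dm6) and read on the strand of the gene, are shown because they carry the bound positions that lie outside exons; capitals mark TATCGATA, the DNA replication-related element common in housekeeping promoters. The eIF1 window is chr3L:3222961-3223061 on the plus strand, and the eIF4EHP window is chr3R:24109022-24109122 on the minus strand.
eIF1: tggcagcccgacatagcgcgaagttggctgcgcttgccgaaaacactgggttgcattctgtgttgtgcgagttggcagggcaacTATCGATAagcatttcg
eIF4EHP: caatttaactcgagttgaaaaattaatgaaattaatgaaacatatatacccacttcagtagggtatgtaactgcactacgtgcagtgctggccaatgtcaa
The eIF1 window holds TATCGATA towards its gene-proximal end, and the eIF4EHP window holds none of the sequences searched.

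eIF6, which binds the large ribosomal subunit during its assembly and keeps it from joining the small subunit too early, had the strongest peak of the 83 genes. It stood at rank 38 with signal 438.3 (chr2R:23850276-23850532), 98 bp upstream of the TSS. The matched peak had signal 226.8 and rank 46 in replicate 5, and signal 217.3 and rank 23 in replicate 1. eIF6 lies inside an intron of ytr, whose nearest start site is 674 bp from the summit, and eIF6 was the sole gene with a start within 500 bp. The bound genes of the eIF3 complex, the scaffold that holds the small subunit during scanning, were eIF3h and eIF3c. The eIF3h peak (chr2L:5052755-5052852) had rank 538 and signal 101.6, with its summit 2 bp into the 5′ UTR and 65 bp upstream of the divergent gene senju. Its matched peak ranked 456 in replicate 5 (signal 68.7) and 1880 in replicate 1 (signal 24.4), where a different summit, 290 bp downstream of the TSS, ranked higher at 1030. The eIF3c peak (chr2R:17665513-17665872) was the weakest of the 11, at rank 1122 and signal 74.3, just above the lowest signal of the optimal list, 73.6. It ranked 961 in replicate 5 (signal 51.6) and 1227 in replicate 1 (signal 29.9). eIF6 and eIF1 were thus inside the 200 strongest peaks of both replicates, while eIF3c lay near the limit of the list.

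**Figure D2:**
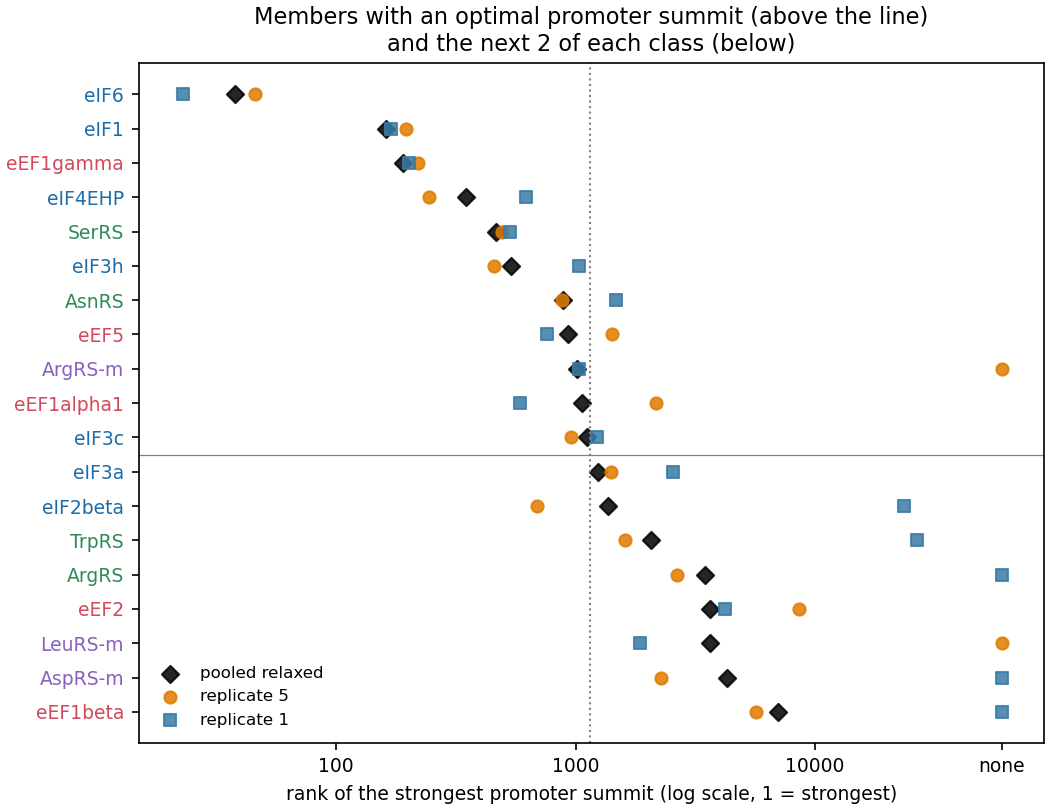
Rank of the strongest promoter summit (log axis, 1 is the strongest) in the pooled relaxed list, replicate 5 and replicate 1, for the 11 bound genes (above the line) and the next 2 unbound genes of each class (below), with a dotted line at rank 1146, "none" for a list without a promoter summit, and gene names coloured by class. eIF6, eIF1 and eEF1gamma lead in all 3 lists; the groups overlap in replicate 5, where unbound eIF2beta, at rank 693, stands ahead of 5 bound genes.

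The remaining 39 initiation factor genes were not bound. The strongest of them was eIF3a, a large core subunit of eIF3, at rank 1241 in the pooled list (signal 70.8), rank 1406 in replicate 5 (signal 44.6) and rank 2544 in replicate 1 (signal 21.2). The next was eIF2beta, a subunit of the factor that carries the initiator tRNA. It ranked 1365 in the pooled list (signal 67.4) and 693 in replicate 5 (signal 58.4), but 23582 in replicate 1 (signal 8.93). Replicate 5 alone would call eIF2beta bound, and replicate 1 would not. Among members, eIF3a was just outside the optimal list and eIF3c just inside it.

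The initiation class was also counted by complex, beside the 6.17% of all genes that were bound, the 47.5% with a pooled relaxed summit and the 30% with a summit in both replicates. Over all genes, 49.8% had a summit in replicate 5, 42.1% had one in replicate 1 and 36.4% had none in any list. All 5 genes of eIF2B, the exchange factor that recharges eIF2 with GTP, were unbound and lacked a relaxed promoter summit in either replicate, and 4 of them had none in any list. The first of these by name was eIF2Balpha. Of 16 eIF3 genes, 2 were bound (12.5%), 8 had a pooled relaxed summit (50%) and 5 had a summit in both replicates (31.2%), the last 2 near the share of all genes. Of 13 eIF4 genes, which encode the cap-binding proteins, their scaffold and the RNA helicase with its helpers, 1 was bound (7.69%) and 6 had a pooled relaxed summit (46.2%), both near the share of all genes. Of 3 eIF2 genes, 0 were bound and 2 had a pooled relaxed summit. Of the other 7 genes (eIF1, eIF1A, eIF2A, eIF2D, eIF5, eIF5B and eIF6), 2 were bound (28.6%) and 5 had a pooled relaxed summit (71.4%). All 7 had a summit in replicate 5, and 5 of them had one in replicate 1 as well (71.4% in both). This grouping was made after the values had been seen, the groups are small, and no difference between them was tested.

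eEF1gamma, a subunit of the complex that recharges eEF1A with GTP, had the strongest peak of the elongation factor genes. The peak (chr3R:29220082-29220206) had rank 192 and signal 169.1, with its summit 16 bp upstream of the TSS and no other gene start within 500 bp. The matched peak had signal 94.2 and rank 221 in replicate 5, and signal 72.3 and rank 201 in replicate 1. The replicates gave it nearly the same place. Its window, chr3R:29220071-29220171 on the plus strand, is shown from the RefSeq genome up to the base before the TSS, and its summit lies within it.
eEF1gamma: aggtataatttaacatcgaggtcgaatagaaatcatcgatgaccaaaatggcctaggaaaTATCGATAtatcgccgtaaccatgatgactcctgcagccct
The capitals mark TATCGATA, as in the eIF1 window.

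The other bound elongation factor genes had weaker peaks. eEF5 (formerly eIF5A) encodes the hypusine-containing factor that helps the ribosome through difficult peptide bonds. Its peak (chr2R:24057643-24058002) had rank 932 and signal 80.8, with its summit 25 bp into the 5′ UTR. It ranked 1426 in replicate 5 (signal 44.3) and 760 in replicate 1 (signal 38.2). eEF1alpha1 encodes the abundant GTPase that delivers charged tRNAs. Its peak (chr2R:11891875-11892234) had rank 1070 and signal 75.7, and its summit lay 67 bp upstream of the nearest of its 4 start sites, in an intron of the gene. It ranked 2165 in replicate 5 (signal 37.5) and 586 in replicate 1 (signal 42.9). For eEF5 and eEF1alpha1 alike, replicate 1 placed the peak within its 1146 strongest and replicate 5 did not.

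The 4 unbound elongation factor genes had weak peaks or none. eEF2, the translocase that moves the ribosome by a codon, ranked 3630 in the pooled list (signal 42.5), 8535 in replicate 5 (signal 20.1) and 4201 in replicate 1 (signal 17.3). eEF1beta, another subunit of the eEF1 exchange complex, ranked 7012 in the pooled list (signal 30.4) and 5655 in replicate 5 (signal 24.6) and had no summit in replicate 1. eEF1delta, a further exchange subunit, had no summit within 500 bp in any list, and the nearest pooled summit was 869 bp away. The exchange complex thus held both the strongest elongation factor peak and the single elongation factor gene without any.

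SerRS and AsnRS, which charge the tRNAs of serine and asparagine, were the bound cytosolic synthetase genes. The SerRS peak (chr2L:3037219-3037578) had rank 466 and signal 108.4, with its summit 4 bp into the 5′ UTR and 12 bp upstream of the divergent gene CG17260. It ranked 495 in replicate 5 (signal 66.6) and 535 in replicate 1 (signal 44.9). The replicates placed SerRS alike. The AsnRS peak (chr2L:19131833-19132192) had rank 885 and signal 82.3, 59 bp upstream of the TSS, and 310 bp upstream of DCTN6-p27 on the other strand. It ranked 879 in replicate 5 (signal 53.3) and 1477 in replicate 1 (signal 27.4), outside the 1146 strongest of the latter. ArgRS-m, the arginine enzyme of mitochondria, was the sole bound mitochondrial synthetase gene. Its peak (chr3R:7886803-7887162) had rank 1015 and signal 77.1, 62 bp upstream of the TSS and 250 bp upstream of CG17816. It ranked 1029 in replicate 1 (signal 32.4), and replicate 5 had no peak there, its nearest summit being 16249 bp away. The ArgRS-m call therefore rests on replicate 1. The windows within 50 bp of the AsnRS and ArgRS-m summits are shown from the RefSeq genome (dm6) because they lie between genes; AsnRS is chr2L:19131963-19132063 on the minus strand and ArgRS-m is chr3R:7886933-7887033 on the plus strand.
AsnRS: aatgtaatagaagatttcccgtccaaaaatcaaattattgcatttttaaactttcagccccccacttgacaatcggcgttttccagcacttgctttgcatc
ArgRS-m: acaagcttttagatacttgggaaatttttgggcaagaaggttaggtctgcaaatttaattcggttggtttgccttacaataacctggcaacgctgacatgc
Neither window holds any of the sequences searched, so neither has capitals.

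Of the 15 unbound cytosolic synthetase genes, TrpRS and ArgRS had the strongest pooled peaks, and in both cases replicate 5 ranked the promoter far higher than replicate 1. TrpRS ranked 2059 in the pooled list (signal 56), 1608 in replicate 5 (signal 42.5) and 26632 in replicate 1 (signal 8.42). ArgRS ranked 3480 in the pooled list (signal 43.4) and 2640 in replicate 5 (signal 34.5) and had no summit in replicate 1. IleRS was the opposite case, at rank 1015 in replicate 1 (signal 32.7, 83 bp upstream) with no pooled or replicate 5 summit at its promoter. IleRS was named after its values had been seen. LeuRS was the cytosolic synthetase gene without a summit in any list.

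Of the 15 mitochondrial synthetase genes, 7 had a pooled relaxed summit (46.7%, against 47.5% of all genes). No summit in any list was found at 6 (40%, against 36.4%), so both shares were near those of all genes. LeuRS-m ranked 3649 in the pooled list (signal 42.4) and 1853 in replicate 1 (signal 24.5), with no summit in replicate 5. AspRS-m ranked 4279 in the pooled list (signal 39.1) and 2263 in replicate 5 (signal 36.7), with no summit in replicate 1. Each was thus found in a single replicate. AlaRS-m was the first by name of the 6 without a summit in any list, and 2 of the 15 genes (13.3%) had a summit in both replicates, against 30% of all genes.

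Across the 83 genes, 51 had a promoter summit in replicate 5 (61.4%, against 49.8% of all genes) and 39 in replicate 1 (47%, against 42.1%). In both replicates it was 30 (36.1%, against 30% of all genes), 21 had one in replicate 5 alone and 9 in replicate 1 alone. Among the 1146 strongest peaks, 9 members were found in replicate 5 (10.8%, against 6.25% of all genes) and 10 in replicate 1 (12%, against 5.63%). Only 6 were found in both (7.23%, against 3.45% of all genes): eIF6, eIF1, eEF1gamma, SerRS, eIF4EHP and eIF3h. In at least 1 replicate it was 13 (15.7%, against 8.44%). Of the 11 bound members, 10 had a peak within 100 bp of the optimal summit in both replicates, and ArgRS-m was the exception. The optimal list was itself derived from both replicates and the pooled data, so such matches are in part built in. Their share over all optimal promoter summits was not counted. Over the 30 members with a summit in both replicates, the ranks had a Spearman rho of 0.62, against 0.58 over 4197 genes. These values describe lists called against the same control, and the summits being compared can be different ones within the same 1000 bp. The replicate summits lay within 100 bp of each other in 17 of the 30 members (56.7%), against 49.6% of genes.

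**Figure D3:**
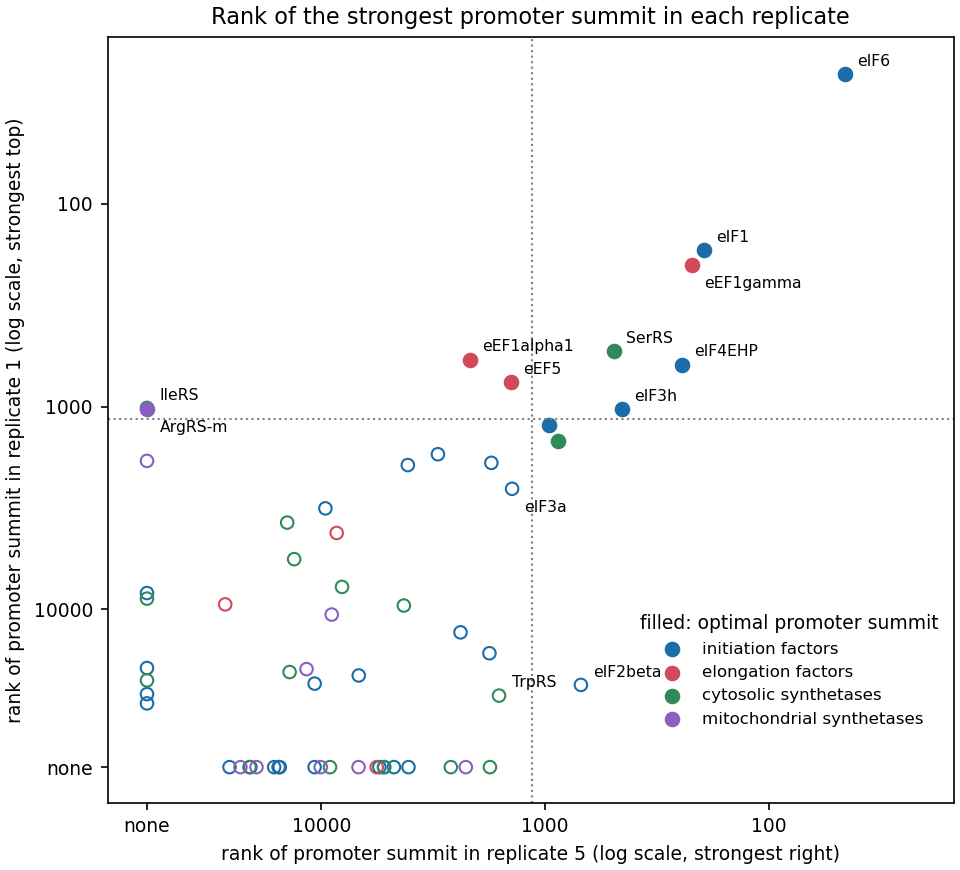
Rank of the strongest promoter summit of each translation gene in replicate 5 and in replicate 1, on log axes with the strongest at the right and top, filled where the gene had an optimal promoter summit; dotted lines mark rank 1146 and "none" marks a list without a promoter summit. eIF6, eIF1 and eEF1gamma stand close to the diagonal at the strong end, and eIF2beta, TrpRS, ArgRS-m and IleRS are far from it.

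By median, the promoter summits of these genes ranked higher in each list than those of genes at large. The median pooled rank was 4006 over 47 members, against 6190 over 6646 genes with a pooled promoter summit. In replicate 5 it was 5251 over 51 members, against 6077, and in replicate 1 it was 4201 over 39, against 7327. By class the median pooled rank was 2349.5 for elongation factors, 3393.5 for initiation factors, 4083.5 for cytosolic synthetases and 8664 for mitochondrial synthetases; the last was the single class whose median lay below that of the genes at large. Genes without a summit have no rank and are not in these medians.

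Bound summits lay close to the start sites. Of the 11, 9 were within 100 bp of the TSS (81.8%), against 39.2% of the 863 bound genes, the exceptions being eIF1 and eIF4EHP. Upstream of the TSS were 7 of the 11 (63.6%), against 87.1% of bound genes, and SerRS, eIF3h, eIF3c and eEF5 had their summits in the 5′ UTR. The median position was 59 bp upstream, against 121 bp for all bound genes. With the 47 pooled summits, 30 lay within 100 bp (63.8%), against 40.6% of genes, while 72.3% of members and 72.4% of genes had the summit upstream. Of the pooled summits at cytosolic synthetases, 11 of 12 lay upstream, and at mitochondrial synthetases 3 of 7 did. The number of start sites per gene, on which such distances depend, had a mean of 1.73 for the bound members, 1.95 for all bound genes, 1.41 for all members and 1.40 for all genes.

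**Figure D4:**
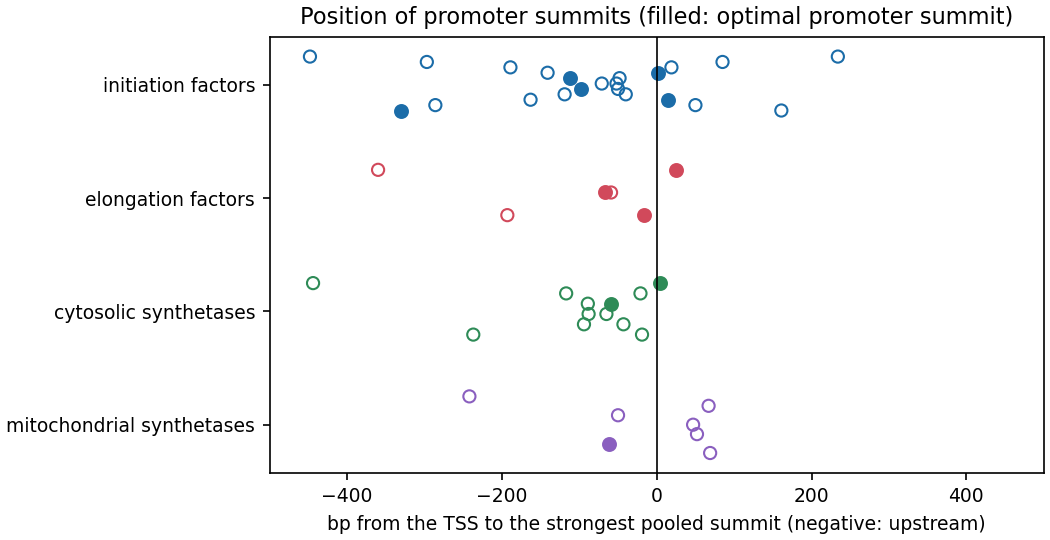
Position of the strongest pooled relaxed promoter summit relative to the TSS in bp, negative upstream, by class of translation gene. Points are filled where the gene had an optimal promoter summit and open otherwise. The filled points lie within 112 bp of the TSS except that of eIF1, at 330 bp upstream.

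These peaks lay at shared promoters at near the share of all bound genes. Another gene's TSS was within 500 bp of the summit for 6 of the 11 (eIF1, eIF4EHP, SerRS, eIF3h, AsnRS and ArgRS-m), against 56.4% of all bound genes. The member was the nearest gene in 10 of the 11, all but eIF1. Over all 863 bound genes, 631 were the gene nearest to an optimal summit. Which of the genes at a shared peak the binding bears on was not tested. Of the 72 unbound members, 5 (6.94%) had an optimal summit in the gene, within 2000 bp before it or within 1000 bp of a TSS, against 3.63% of 13123 unbound genes. The strongest belonged to eIF2Bbeta, whose TSS lies 685 bp from the peak at rank 14 with signal 769.9 (chrX:2703715-2704052). That summit is 34 bp upstream of Ugalt, a sugar nucleotide transporter gene. The other 4 lay 1071 bp from AlaRS, 1272 bp from eIF2Bgamma, 1567 bp from eIF2D and 1715 bp from eIF4A, and each was within 100 bp of another gene's start, among them chic, the profilin gene, and Vha36-1, a proton pump subunit gene.

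Sequences near the bound summits were searched on both strands for the E-box CACGTG, for TATCGATA, for the E-box variant CAGCTG and for GTCACACT, a core promoter element of many housekeeping genes. None of these contains another, and a match only describes the letters present. Within 50 bp of the summits, CACGTG was found at 0 of 11 member summits, against 10 of 603 nuclear optimal promoter summits (1.66%). TATCGATA was at 2 of 11 (18.2%, eIF1 and eEF1gamma), against 4.48% of the 603. CAGCTG was at 0, against 6.30%, and GTCACACT at 0, against 1.66%. Mean GC content in the windows was 42% for the members and 38.4% for the 603, with SerRS lowest at 21.8%. At 11 summits, a count of 0 says only that the letters are not in these windows.

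In the promoter windows, from 250 bp before to 50 bp after each TSS, the E-box was counted in the same way. Here and for the other sequences below, a gene counted when any of its windows held the sequence. Genes with more start sites thus had more windows searched. The mean number of start sites was 1.95 for all bound genes, 1.73 for bound members and 1.40 for all genes. The part of start-site number in these shares was not tested. CACGTG was in the windows of 8 of 83 members (9.64%), against 5.30% of 13945 genes. It was in 0 of 11 bound and 8 of 72 unbound members, a difference that was not tested: GlnRS, LeuRS-m, ThrRS, eEF2, eIF2A, eIF2gamma, eIF3f2 and eIF4A. Of all bound genes, 61 of 851 (7.17%) had it, a share at which a count of 0 in 11 says little. 3 examples that lie outside exons are shown, from the RefSeq genome (dm6) on the strand of the gene, with CACGTG in capitals, because they are E-boxes of unbound members. ThrRS is chr2L:12104099-12104144 on the plus strand, eEF2 is chr2L:21682176-21682221 on the minus strand and eIF2gamma is chr3R:15263017-15263062 on the minus strand.
ThrRS: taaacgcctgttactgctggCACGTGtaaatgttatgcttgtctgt
eEF2: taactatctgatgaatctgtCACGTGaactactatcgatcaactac
eIF2gamma: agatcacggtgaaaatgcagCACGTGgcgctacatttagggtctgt
The eEF2 E-box lay 25 bp from the pooled summit at rank 3630, 32 bp from the replicate 5 summit at rank 8535 and 50 bp from the replicate 1 summit at rank 4201. At ThrRS the E-box was 465 bp from the pooled summit at rank 4006, and at eIF2gamma 467 bp from that at rank 4451. The eEF2 E-box was thus within 50 bp of a weak summit in all 3 relaxed lists. The E-box of eIF4A lay 15 bp from a pooled summit at rank 3604, 50 bp from the replicate 5 summit at rank 1740 and 141 bp from the replicate 1 summit at rank 1895. That of LeuRS-m lay 74 bp from the pooled summit at rank 3649 and 19 bp from the replicate 1 summit at rank 1853, and its nearest summit in replicate 5 was 14264 bp away. At the remaining E-boxes the nearest pooled summit was 123 bp away for eIF2A, 1841 bp for eIF3f2 and 3215 bp for GlnRS. The eIF2A E-box lay 82 bp from a replicate 5 summit, and that of GlnRS 51 bp from a replicate 1 summit at rank 8852. How often E-boxes of all genes lie this near a relaxed summit was not counted. None of these summits was in the optimal list.

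TATCGATA was in the promoter windows of 21 members (25.3%), against 10.2% of all genes, in 3 of 11 bound and 18 of 72 unbound members. It was in 13 of 44 initiation factors (29.5%), 2 of 7 elongation factors (28.6%), 5 of 17 cytosolic synthetases (29.4%) and 1 of 15 mitochondrial synthetases (6.67%, PheRS-m). Bound and unbound members thus had it at near the same share, 27.3% and 25%, and 14.3% of all bound genes had it. CAGCTG split the classes differently: it was in 8 of 17 cytosolic (47.1%) and 8 of 15 mitochondrial synthetases (53.3%), but in 5 of 44 initiation factors (11.4%) and 0 of 7 elongation factors, against 22.3% of all genes. Of the bound members, 3 of 11 had CAGCTG (27.3%), against 36% of all bound genes. GTCACACT was in 9 members (10.8%), against 7.59% of all genes. It was in 0 of the 11 bound ones, against 8.81% of all bound genes, a share at which 0 in 11 says little.

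Of 34 other genes of translation in 6 lists, 3 were bound (8.82%, against 6.17% of all genes). A pooled relaxed summit was at 22 of the 34, against 6646 of all 13986 genes (47.5%). The bound ones were GluProRS, pAbp and Dph4. GluProRS, which encodes a fused synthetase for glutamate and proline, had a summit at rank 731 with signal 89.2, 234 bp upstream of its TSS and 26 bp upstream of AP-1sigma. Its promoter ranked 587 in replicate 5 and 1213 in replicate 1. pAbp, the gene of the poly(A)-binding protein, had a summit at rank 317 with signal 131.3, exactly 500 bp downstream of a TSS and so at the limit of the definition. It ranked 467 in replicate 5 and had no promoter summit in replicate 1. Both calls are therefore lost when replicate 5 is left out. Dph4, a gene of diphthamide synthesis on eEF2, had a summit at rank 357 with signal 123.3, 300 bp upstream, in a peak shared with Spec2 and, at 49 bp, with the ribosomal protein gene RpL13A. A further optimal summit, at rank 1008 with signal 77.4, lay 44 bp upstream of another start site of Dph4, with no other gene start within 500 bp. Its strongest promoter summit ranked 341 in replicate 5 and 404 in replicate 1. None of 9 mitochondrial translation factors, 7 genes of translation control or 3 scaffold genes of the synthetase complex was bound. Beside the 6.17% of all genes, counts of 0 in lists this small say little. A pooled relaxed summit was at 4 of the 9, 6 of the 7 and 0 of the 3. It was at 7 of 7 genes of termination, recycling and mRNA ends, 3 of 5 of diphthamide and hypusine and 2 of 3 other synthetases. Beside the 47.5% of all genes, these counts too come from lists too small to say much.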

How the data were processed

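Binding of Mio-GFP was measured by ChIP-seq in 2 replicates of whole larvae. Per the labels and the text deposited with the lists, the authors called a relaxed peak list on each replicate and on the pooled data against a control alignment, and derived the optimal list from them. The deposited signal of each peak is the authors' own measure, of unstated scale, and was printed and used for ranks within a list. The deposited −log10 q-value of the authors had 1 value throughout the optimal list and could not rank it. No source used here names the aligner, the peak caller or the reproducibility threshold. Read depth is unknown, and the number of reads behind a peak is not known.

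Start sites were the 5′ ends of protein-coding transcripts of Ensembl release 115 (BDGP6.54) on the Release 6 genome. A summit within 500 bp of a start site counted for that gene, and for several genes where their starts were that near. Replicate peaks were matched by summits within 100 bp. Shares have 95% Wilson intervals. Python 3.11.15, pandas 2.3.3 and scipy 1.17.1 were used, and the assignment was tested on simulated peaks. No test was made, since there is 1 group.

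The members, the lists and the sequences searched were chosen with earlier results of these data known. Named genes were all bound members, in each class the 2 unbound members with the best pooled rank and the member with the worst rank or without any peak (first by name), and every bound gene of the other lists; further genes were named after their values had been seen. Of the other translation genes, 4 symbols matched no single gene and were left out. Alternatives were start distances of 200 and 1000 bp, the whole peak, the stronger 573 optimal peaks, each replicate alone, the strongest pooled peaks, the nearest gene only, other matching rules and other sequence windows.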

Additional observations from a re-analysis of the deposited data

How the results depend on the processing

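The strongest pooled peaks are no separate alternative, since they hold 1145 of the 1146 optimal peaks. Without them, 48 of 59 recomputed values stayed within the set limits and 11 moved. The limits are wide: 4 or 6 bound initiation factors in place of 5 counted as unmoved. Sequence counts that stayed at 0 are among the 48, and the classes overlap with the count of all members. The 48 are therefore no measure of robustness. eIF6, eEF1gamma, SerRS, eIF3h and eIF4EHP were bound under the other 7 alternatives for the peak and its distance, but eIF3h without replicate 5 only through a different summit, 290 bp downstream at rank 1030, since its own peak ranked 1880 in replicate 1. With the stronger 573 optimal peaks the bound members fell from 11 to 6 (3.15% of all genes), leaving 1 elongation factor, 1 cytosolic synthetase and 0 mitochondrial synthetases; ArgRS-m, AsnRS, eEF1alpha1, eEF5 and eIF3c were lost. With each replicate alone, leaving out the other, the bound members numbered from 9 to 10, the elongation factors from 1 to 3 and the mitochondrial synthetases from 0 to 1. Without replicate 5, AsnRS and eIF3c were lost and IleRS was gained, and without replicate 1, ArgRS-m, eEF1alpha1 and eEF5 were lost and eIF2beta was gained. A distance of 200 bp, the whole peak or the nearest gene only each lost eIF1 and left 10 members (12%, against 4.38%, 3.70% and 4.51% of all genes), and 1000 bp added eIF2Bbeta (14.5%, against 7.15%). The other translation genes fell from 3 bound to 1 (Dph4) at 200 bp and to 1 (Dph4) with the whole peak, 2.94% against 4.38% and 3.70% of all genes, so their share was then below that of all genes. Without replicate 5 they again numbered 3, but these were Dph4, Dph1 and crc. TATCGATA was at 1 member summit in a window of 25 bp, and CAGCTG at 2 in a window of 100 bp. The median position moved to −37.5 bp at 200 bp. The dm3 lists (1315 optimal peaks) were not run per gene. No paired analysis was possible because there is 1 group. The depth of each library is unknown, so a missing weak peak cannot be read as absence of binding.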

Other observations

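Among the genes of translation control, which were unbound, crc, the fly ATF4 gene that responds to amino acid shortage, came nearest to the optimal list. Its strongest promoter summit ranked 1233 in the pooled list, 513 in replicate 1 and 3729 in replicate 5, so replicate 1 alone would call it bound. It was named after its values had been seen.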
